A study of Mus musculus with 6 samples.

Results

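The 10 genes described here encode lysosomal proteases: cathepsins A, B, C, D, F, H, L, S and Z (Ctsa, Ctsb, Ctsc, Ctsd, Ctsf, Ctsh, Ctsl, Ctss, Ctsz) and legumain (Lgmn). They were taken by symbol from a table of read counts for 17872 genes, all 10 were present, and all 10 passed the filter on low counts that left 13403 genes for testing. By the chemistry of the active site, 1 is an aspartic protease (Ctsd), 1 a serine protease (Ctsa) and 8 are cysteine proteases, of which Lgmn belongs to another clan than the 7 papain-like cathepsins. The RNA came from BV2, an immortalised mouse line of microglia, the phagocytes of the brain. In the comparison, 3 libraries labelled Tfam knockout, made with CRISPR-Cas9, were set against 3 wild-type libraries. The labels attach culture in puromycin at 2 µg/mL to all 6 samples, and give no other treatment. Whether the edited line was clonal or pooled, and what the wild-type cells carried, is not stated. Nor is it stated that replicates came from separate cultures, so the spread behind each p-value may be technical.

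Lysosomal proteases are made as inactive precursors, carried to the lysosome mostly by receptors for mannose 6-phosphate tags, and activated there in the acid lumen, partly by one another. Aspartic and most cysteine cathepsins cut inside proteins, while others trim ends: Ctsa and Ctsz remove residues from the carboxyl end, and Ctsc and Ctsh from the amino end. Cystatins and stefins hold the cysteine proteases in check. In microglia and macrophages these enzymes digest phagocytosed material and process antigens, and Ctss, Ctsf, Ctsl and Lgmn are known for cutting the invariant chain or antigens of the class II pathway. Tfam, the targeted gene, encodes the protein that packages mitochondrial DNA.

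Library totals ran from 13850691 to 20889786 counts in the labelled Tfam knockout libraries and from 14642397 to 28418133 in the wild-type libraries. Levels are given in CPM, counts per 1e+06 counts after TMM scaling of the libraries. Tfam mRNA itself was at 41.0, 42.7 and 43.2 CPM in the labelled knockout libraries and at 39.0, 38.5 and 37.1 CPM in the wild-type libraries, with a log2 fold change of 0.14 ± 0.0869 (SE) that did not pass (adjusted p = 0.193, edgeR's quasi-likelihood test with Benjamini-Hochberg adjustment over all tested genes). It passed as higher with library totals as the scaling (0.24, adjusted p = 0.0403, edgeR). Its level does not show the edit, and every direction below is between the libraries labelled knockout and the wild-type libraries. Of the microglia and macrophage markers, the summed level was 1807 to 1991 CPM in the labelled knockout libraries and 2550 to 2931 CPM in the wild-type libraries, and 6 of the 8 tested were lower (22.9% of all tested genes were), among them Csf1r, Trem2, Tyrobp and Cd68; the call of Cd68 ended without wild-type replicate 2 (adjusted p = 0.0523, edgeR). The homeostatic markers Tmem119 and Cx3cr1 were at most 0.637 and 2.03 CPM in any library. Itgam and P2ry12 were listed as markers too, but had no row of counts. Of 5 listed neuron markers, 3 had a row of counts, and these summed to 0.991 to 3.13 CPM in any library. Of 5 listed astrocyte markers, 2 had a row of counts, and these summed to 0.637 to 1.60 CPM. Both sums were near 0. The 1 fibroblast marker present, Pdgfra, was at 0.236 to 0.574 CPM in the labelled knockout libraries and 1.42 to 2.55 CPM in the wild-type libraries (-2.29, adjusted p = 0.000460, edgeR), and markers of oligodendrocytes summed to 11.9 to 14.1 CPM in the labelled knockout libraries and 24.0 to 25.5 CPM in the wild-type libraries, mostly from Mbp; their part in the results was not tested.

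Short promoter stretches are shown first, and any part of their motifs in the changes below was not tested. TFEB and its relatives, transcription factors known for driving lysosomal genes, bind E-boxes with the letters CACGTG. RefSeq promoter windows on GRCm38.p6 (250 bases before to 50 bases after a start site) were matched for 8 of the 10 genes; Ctsb and Ctsh had no entry. The capitals mark CACGTG, or TCACGTGA where its flanking bases also match; both are palindromes, so 1 search covers both strands.
Ctsd, chr7:142387908-142387937, minus strand: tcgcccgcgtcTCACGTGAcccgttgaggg
Ctsd, chr7:142388048-142388077, minus strand: tccccCACGTGacctgtatccagtcattct
Ctsa, chr2:164833757-164833786, plus strand: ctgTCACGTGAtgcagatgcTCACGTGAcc
Lgmn, chr12:102439124-102439153, minus strand: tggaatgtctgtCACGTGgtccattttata
Ctsl, chr13:64370739-64370768, minus strand: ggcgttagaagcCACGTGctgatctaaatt
Ctsf, chr19:4855074-4855103, plus strand: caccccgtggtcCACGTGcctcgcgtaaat
With the start site as position 1 and the base before it as position -1, the match with flanks began at -99 in Ctsd and at -13 and 5 in Ctsa, in the second of its 2 windows. The shorter matches began at -245 in Ctsd, -49 in Lgmn (in 1 of its 2 windows), -236 in Ctsl and -79 in Ctsf. So 5 of the 8 genes held CACGTG, against 8.09% of the 27025 genes with a window, and 2 of the 8 held TCACGTGA, against 1.12%. None held the longer 10-base palindrome known as CLEAR, which has 1 further matching base on each side and was found in 0.370% of all genes. On both strands, 6 of the 8 held the GC box GGGCGG (38.2% of all genes) and 3, Ctsa, Ctsc and Ctss, held the ETS core GGAAGT (26.5% of all genes). Each TCACGTGA holds a CACGTG, so these counts overlap. A match describes letters in a window and says nothing of binding.

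The family changed in both directions, with Ctsd and Ctsb higher and Ctsf, Ctsa, Ctsh, Lgmn and Ctss lower in the labelled knockout libraries. Of the 10 genes, 2 rose (21.3% of all tested genes rose), 5 fell (22.9% of all tested genes fell) and 3, Ctsz, Ctsc and Ctsl, did not pass at an adjusted p below 0.05; 44.2% of all tested genes passed in either direction. The median log2 fold change of the 10 was -0.20, against 0.00 for all 13403 genes tested. By class, the aspartic protease rose, the serine protease fell, and of the 8 cysteine proteases 1 rose, 4 fell and 3 did not pass, over a range from -1.13 to 0.23. In CPM the groups did not overlap for 8 of the 10 genes, 2 higher and 6 lower, against 52.9% of all tested genes (26.3% higher and 26.6% lower). In bulk RNA, fewer cells expressing a gene and less RNA per cell cannot be told apart.

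**Figure D1:**
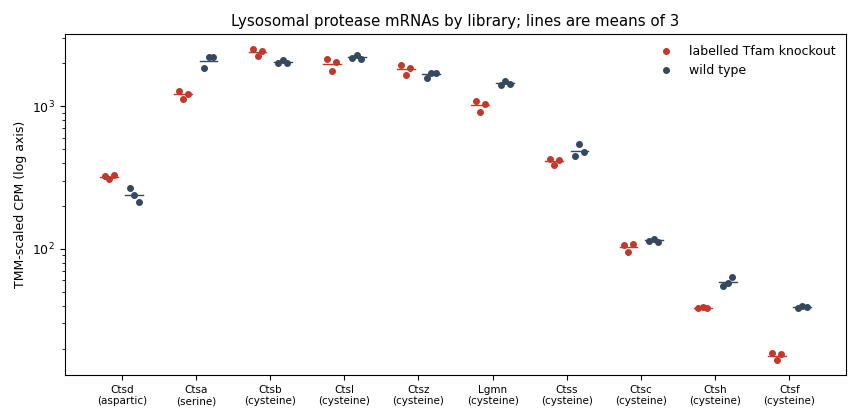
TMM-scaled CPM on a log axis for each of the 10 protease genes, with the 3 labelled Tfam knockout libraries left of the 3 wild-type libraries and a line at each mean. Ctsd and Ctsb lie higher in the labelled knockout libraries, Ctsa, Lgmn, Ctss, Ctsc, Ctsh and Ctsf lie lower without overlap, and Ctsl and Ctsz overlap.

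**Figure D2:**
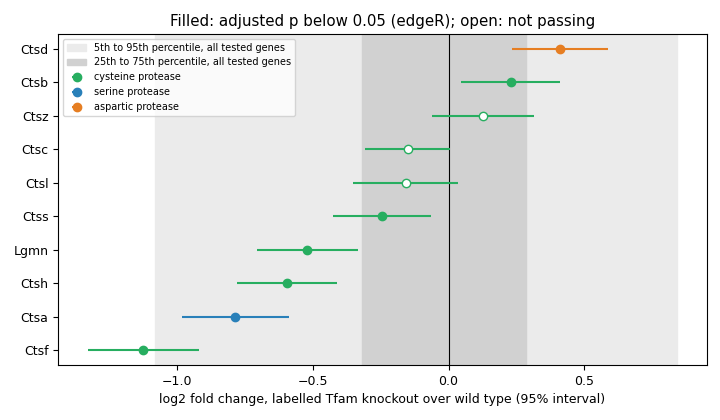
Log2 fold change of each gene, labelled Tfam knockout over wild type, with its 95% interval, coloured by protease class; filled points passed at an adjusted p below 0.05 (edgeR). The grey bands hold the middle of all tested genes, and Ctsf at -1.13 lies outside both.

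Ctsd, the main aspartic endopeptidase of the lysosome, was at 325, 308 and 328 CPM in the labelled knockout libraries and at 268, 239 and 214 CPM in the wild-type libraries. Every labelled knockout library was above every wild-type library, and wild-type replicate 1 was the highest of its group. The log2 fold change was 0.41 ± 0.0840 (SE), a ratio of 1.33 (adjusted p = 0.000721, edgeR). In the GENCODE M21 annotation, on another build than the authors', 34.4% of the exon bases of Ctsd are also exons of Gm49369 on the same strand. The sources used here do not give how reads in such exons were counted, and Gm49369 was not analysed here, so the level of Ctsd relative to other genes is uncertain, and its change rests on the reads assigned to it, 6878, 5359 and 4700 in the labelled knockout libraries and 7531, 3672 and 3021 in the wild-type libraries.

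Ctsa, a serine carboxypeptidase that also protects the lysosomal beta-galactosidase and neuraminidase in a shared complex, was at 1282, 1124 and 1217 CPM in the labelled knockout libraries and at 1858, 2199 and 2194 CPM in the wild-type libraries. The groups were well apart, and wild-type replicate 1 was the lowest of its group. Ctsa fell by 0.79 ± 0.0936 (SE) on the log2 scale, to a ratio of 0.580 (adjusted p = 3.23e-06, edgeR). Its exons overlap those of Neurl2 and Pltp on the opposite strand in GENCODE M21, over 17.4% of its exon bases, and the library kit does not mark strand. Neurl2, named for this overlap after its values were seen, was at 14.9 ± 2.63 CPM in the labelled knockout libraries and 42.2 ± 6.49 CPM in the wild-type libraries (SD, n = 3 each), with a log2 fold change of -1.49 (adjusted p = 1.68e-07, edgeR). The rarer Pltp was at 2.85 ± 1.33 CPM in the labelled knockout libraries and 5.70 ± 2.24 CPM in the wild-type libraries (-1.01, adjusted p = 0.0208, edgeR). Of the partners of the complex, the beta-galactosidase Glb1 fell to 119 ± 3.64 CPM in the labelled knockout libraries, against 214 ± 9.70 CPM in the wild-type libraries (log2 fold change -0.85, adjusted p = 5.00e-08, edgeR). The neuraminidase Neu1 was at 172 ± 9.53 CPM in the labelled knockout libraries and 158 ± 7.95 CPM in the wild-type libraries and did not pass (0.12, adjusted p = 0.210, edgeR), though it passed as higher with library totals as the scaling (adjusted p = 0.0199) and with the length and GC offsets (adjusted p = 0.00484).

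Among cysteine proteases, the endopeptidase Ctsf showed the largest change of the 10 genes. It was at 18.6, 16.7 and 18.2 CPM in the labelled knockout libraries and at 38.3, 39.6 and 39.1 CPM in the wild-type libraries. Levels within each group were tight, and the ratio between groups was 0.458. Ctsf fell by 1.13 ± 0.0972 (SE) on the log2 scale (adjusted p = 7.79e-08, edgeR), and a decrease of at least 2-fold that passed was seen for 5.54% of all tested genes. Its counts were 394, 291 and 261 in the labelled knockout libraries and 1076, 608 and 552 in the wild-type libraries, the lowest of the family.

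The aminopeptidase Ctsh was at 38.3, 39.2 and 38.4 CPM in the labelled knockout libraries and at 54.7, 57.4 and 63.3 CPM in the wild-type libraries. The labelled knockout libraries lay within about 1 CPM of each other and below all wild-type libraries, and Ctsh fell by 0.60 ± 0.0878 (SE) on the log2 scale (adjusted p = 3.32e-05, edgeR). Lgmn, the asparaginyl endopeptidase that in mice processes cathepsins B, H and L further, was at 1082, 913 and 1037 CPM in the labelled knockout libraries and at 1412, 1512 and 1425 CPM in the wild-type libraries. The groups did not overlap, and Lgmn fell by 0.52 ± 0.0876 (SE) on the log2 scale, a ratio of 0.697 (adjusted p = 0.000126, edgeR).

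Ctss, which stays active at neutral pH and trims the invariant chain, was at 425, 386 and 421 CPM in the labelled knockout libraries and at 444, 539 and 478 CPM in the wild-type libraries. The highest labelled knockout library lay just under the lowest wild-type library. Ctss fell by 0.25 ± 0.0849 (SE) on the log2 scale (adjusted p = 0.0263, edgeR), a call that ended when libraries were scaled by their totals (adjusted p = 0.142) or when wild-type replicate 2 or 3 or labelled knockout replicate 2 or 3 was left out (adjusted p = 0.187, 0.0660, 0.0831 and 0.0685; log2 fold change -0.16 without wild-type replicate 2).

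Ctsb, which acts both inside proteins and at the carboxyl end, was the only cysteine protease of the 10 that rose. It was at 2501, 2231 and 2425 CPM in the labelled knockout libraries and at 2005, 2107 and 1993 CPM in the wild-type libraries. The groups did not overlap, and the increase was small, 0.23 ± 0.0865 (SE) on the log2 scale or a ratio of 1.17 (adjusted p = 0.0399, edgeR). The call ended without wild-type replicate 3 or without labelled knockout replicate 1 or 3 (adjusted p = 0.104, 0.0951 and 0.155), with log2 fold changes of 0.19 to 0.22. In GENCODE M21, 12.8% of its exon bases overlap Fdft1 on the opposite strand, and Fdft1 was at 50.05 ± 2.60 CPM in the labelled knockout libraries and 51.8 ± 2.97 CPM in the wild-type libraries (-0.05, adjusted p = 0.679, edgeR).

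The remaining cysteine proteases, Ctsz, Ctsl and Ctsc, did not pass. The carboxypeptidase Ctsz was at 1956, 1661 and 1848 CPM in the labelled knockout libraries and at 1588, 1714 and 1702 CPM in the wild-type libraries, with a log2 fold change of 0.13 and a 95% interval from -0.06 to 0.32 (adjusted p = 0.264, edgeR). It passed as higher when libraries were scaled by their totals (0.23, adjusted p = 0.0212) and when offsets adjusted each gene for its length and base composition (0.30, adjusted p = 0.00149, edgeR). The endopeptidase Ctsl was at 2132, 1771 and 2025 CPM in the labelled knockout libraries and at 2191, 2298 and 2125 CPM in the wild-type libraries, a log2 fold change of -0.16 with an interval from -0.35 to 0.04 (adjusted p = 0.176, edgeR). Exons of Gm47123 and Gm49230, not analysed here, overlap 32.9% of its exon bases. Ctsc, the dipeptidyl peptidase that activates granule serine proteases in leukocytes, was at 106, 95.3 and 109 CPM in the labelled knockout libraries and at 113, 118 and 113 CPM in the wild-type libraries. Its log2 fold change was -0.15 with an interval from -0.31 to 0.01 (adjusted p = 0.109, edgeR). With the length and GC offsets Ctsl and Ctsc both passed as lower (-0.20 and -0.22, adjusted p = 0.0363 and 0.00979, edgeR), so that none of these 3 is shown to stay level. With a library left out, Ctsz ran from 0.07 to 0.19, Ctsl from -0.22 to -0.08 and Ctsc from -0.19 to -0.10, and none passed.

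Levels were compared between genes only per length, as CPM per kilobase of 1 principal transcript of GENCODE M21. In the labelled knockout libraries the order was Ctsz (1264 CPM per kilobase), Ctsl (1002), Lgmn (508), Ctsb (503), Ctsa (331), Ctss (303), Ctsd (150.5), Ctsc (41.4), Ctsh (23.9) and Ctsf (9.01). Neighbours whose ranges over libraries overlapped were Lgmn and Ctsb, and Ctsa and Ctss. In the wild-type libraries it was Ctsz (1157), Ctsl (1118), Lgmn (729), Ctsa (571), Ctsb (429), Ctss (360), Ctsd (113), Ctsc (46.0), Ctsh (36.2) and Ctsf (19.7), with overlapping ranges for Ctsz and Ctsl. The order of Ctsa and Ctsb thus differed between the groups. Ctsz ranked 36 in the labelled knockout libraries and 69 in the wild-type libraries among 13337 genes with a length, while Ctsf ranked 6846 and 4247 on the same scale. Measured over all annotated exons (6489 bases for Ctsl, against 1971 in its principal transcript), Ctsl had 304 CPM per kilobase in the labelled knockout libraries and 339.7 in the wild-type libraries. It then stood below Lgmn and Ctsb in the labelled knockout libraries, and its range overlapped those of Ctss and Ctsb in the wild-type libraries. This second length was chosen after the data were seen.

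The summed level of the 10 genes was 9866, 8546 and 9465 CPM in the labelled knockout libraries and 9972, 10823 and 10346 CPM in the wild-type libraries. Labelled knockout replicate 1 lay just below wild-type replicate 1, and the difference in mean log2 was -0.16, with a two-sided p of 0.1 by exact permutation, the lowest value possible with 3 libraries against 3. As a share of all counts, which does not use the TMM scaling, the 10 genes took 0.960% ± 0.0524 in the labelled knockout libraries and 1.00% ± 0.0151 in the wild-type libraries (SD, n = 3 each). These overlapped, with a two-sided p of 0.3 by exact permutation. The 8 cysteine proteases summed to 7764 ± 588 CPM in the labelled knockout libraries and 8056 ± 288 CPM in the wild-type libraries, and these groups overlapped too (exact two-sided permutation p = 0.5).

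**Figure D3:**
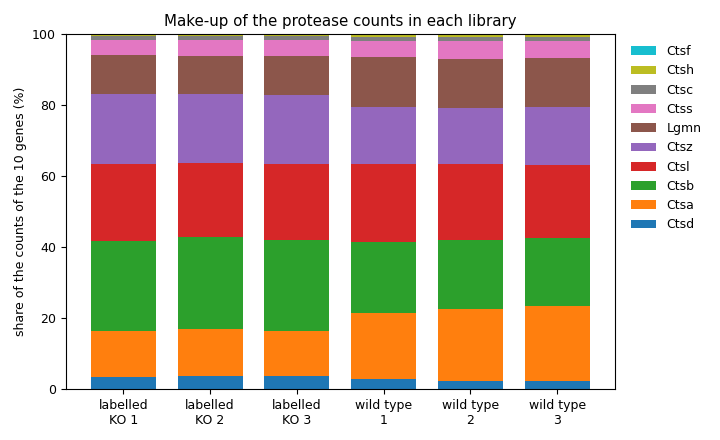
Share of each gene in the counts of the 10 genes, in percent, per library, with the 3 labelled knockout (KO) libraries left of the 3 wild-type libraries. The Ctsa band is thinner in the labelled knockout libraries (about 13.0% against 20.1%) and the Ctsb and Ctsz bands are thicker.

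The make-up of the family is a measure that does not depend on how libraries are scaled. Ctsa made up 13.0%, 13.2% and 12.9% of the family's counts in the labelled knockout libraries and 18.6%, 20.3% and 21.2% in the wild-type libraries. Ctsb made up 25.3%, 26.1% and 25.6% in the labelled knockout libraries and 20.1%, 19.5% and 19.3% in the wild-type libraries. These counts are not adjusted for length, so the size of a share does not rank the levels of the genes. In counts, Ctsb held the largest share in each labelled knockout library. The largest in the wild-type libraries was that of Ctsl in replicates 1 and 2 and that of Ctsa in replicate 3. Per kilobase of principal transcript, Ctsz had the highest mean in each group. Ctsz had 19.6% ± 0.208 in the labelled knockout libraries and 16.1% ± 0.331 in the wild-type libraries, and Lgmn had 10.9% ± 0.157 in the labelled knockout libraries and 14.0% ± 0.195 in the wild-type libraries (SD, n = 3 each). The share of Ctsl was nearly level, at 21.2% ± 0.460 in the labelled knockout libraries and 21.2% ± 0.719 in the wild-type libraries, and so was that of Ctsc, at 1.11% ± 0.0385 in the labelled knockout libraries and 1.11% ± 0.0277 in the wild-type libraries. Shares did not overlap between the groups for 7 genes, 3 higher (Ctsb, Ctsd, Ctsz) and 4 lower (Ctsa, Ctsf, Ctsh, Lgmn). In CPM, the groups did not overlap for 52.9% of all tested genes, and no background was computed for shares. Each of the 7 had an exact two-sided permutation p of 0.1, or 0.143 adjusted over the 10 genes, so that none could pass. Shares are tied to one another, since a lower share of one gene raises the others.

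Ratios within a library compared the 3 classes among the 10 genes, again free of library scaling. The aspartic and the serine class hold 1 gene each, so these ratios describe Ctsd and Ctsa and not other proteases of their kind. The log2 ratio of Ctsd to the summed cysteine proteases was -4.67, -4.53 and -4.59 in the labelled knockout libraries and -4.87, -5.13 and -5.21 in the wild-type libraries, a difference of 0.48 or a ratio of 1.39. The log2 ratio of Ctsa to the cysteine proteases was -2.69, -2.66 and -2.70 in the labelled knockout libraries and -2.08, -1.93 and -1.85 in the wild-type libraries, a difference of -0.73 or a ratio of 0.603. Between the aspartic and the serine protease, the log2 ratio of Ctsd to Ctsa was -1.98, -1.87 and -1.89 in the labelled knockout libraries and -2.79, -3.20 and -3.36 in the wild-type libraries, a difference of 1.20 or a ratio of 2.30. All 3 ratios were apart between the groups, each with an exact two-sided permutation p of 0.1, also 0.1 when adjusted over the 3, the smallest this design can give. The spread was wider in wild type for each ratio, with wild-type replicate 1 nearest to the labelled knockout libraries. With the cysteine proteases weighed equally (mean of their log2 counts in place of the sum), the difference was 0.73 for Ctsd and -0.48 for Ctsa.

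**Figure D4:**
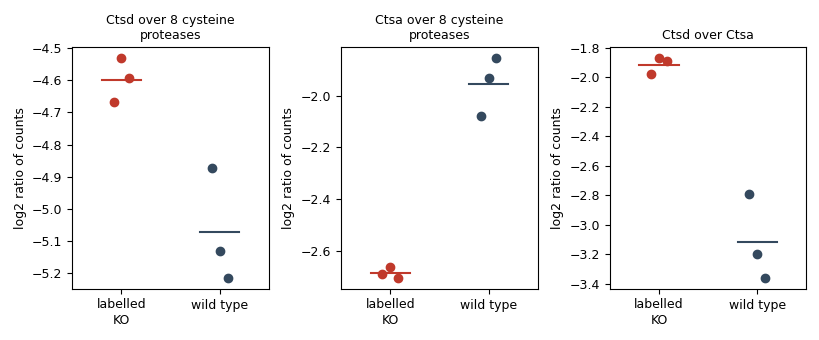
Log2 ratios of counts within each library for Ctsd over the 8 cysteine proteases, Ctsa over the same 8, and Ctsd over Ctsa, each point a library and each line a mean of 3, with the labelled knockout (KO) libraries left of wild type. Ctsd is higher and Ctsa lower relative to the cysteine proteases in the labelled knockout libraries, and no groups overlap.

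Of 15 other cathepsins listed, 5 had a row of counts and 3 were tested. None of the 3 rose and 2 fell, beside 21.3% and 22.9% of all tested genes. Ctso was at 23.8 ± 2.63 CPM in the labelled knockout libraries and 22.9 ± 1.11 CPM in the wild-type libraries. It did not pass (0.05, adjusted p = 0.722, edgeR). Ctsk, the cysteine cathepsin known from osteoclasts and bone resorption, was at 989, 817 and 956 CPM in the labelled knockout libraries and 1173, 1168 and 1169.8 CPM in the wild-type libraries. The groups were apart, and it fell by 0.35 ± 0.0875 (SE) on the log2 scale (adjusted p = 0.00388, edgeR). Ctse, a second aspartic cathepsin that is not mainly lysosomal, was rare, at 5.09 ± 0.532 CPM in the labelled knockout libraries and 9.91 ± 0.554 CPM in the wild-type libraries, and fell by 0.96 on the log2 scale (adjusted p = 0.000145, edgeR), the opposite direction to Ctsd. Of 5 other lysosomal peptidases tested, 1 rose and 2 fell, beside 21.3% and 22.9% of all tested genes. The serine carboxypeptidase Scpep1, related to Ctsa, rose to 130.1 ± 0.966 CPM in the labelled knockout libraries, against 93.4 ± 10.3 CPM in the wild-type libraries (log2 fold change 0.47, adjusted p = 0.000147, edgeR), again opposite to its relative. The tripeptidyl peptidase Tpp1 (-0.36, adjusted p = 0.00105, edgeR) and the carboxypeptidase Prcp (-0.40, adjusted p = 0.00223, edgeR), both serine proteases, fell.

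Of 8 tested inhibitors of lysosomal and granule proteases, 1 rose and 5 fell, beside 21.3% and 22.9% of all tested genes (median of the 8 on the log2 scale -0.46, against 0.00). The secreted cystatin Cst3 was at 246, 190.4 and 206 CPM in the labelled knockout libraries and at 299, 382 and 370.4 CPM in the wild-type libraries (-0.71, adjusted p = 3.07e-05, edgeR). The cytosolic stefin Cstb was at 297, 236 and 267 CPM in the labelled knockout libraries and at 359, 448 and 453 CPM in the wild-type libraries (-0.65, adjusted p = 4.82e-05, edgeR). Both of these inhibitors of cysteine cathepsins were lower without overlap between the groups. With the length and GC offsets their changes were smaller, -0.45 for Cst3 and -0.46 for Cstb, and still passed (adjusted p = 5.81e-05 and 3.52e-05, edgeR). Serpinb1a, which inhibits neutrophil serine proteases, fell to 209.7 ± 17.8 CPM in the labelled knockout libraries, against 821 ± 59.6 CPM in the wild-type libraries (-1.97, adjusted p = 1.87e-11, edgeR). Serpinb6a (-0.27) and the rare Stfa1 (-1.80) fell as well (adjusted p = 0.00722 and 0.00387, edgeR). Stfa1 has near-identical relatives, so its count is uncertain, and its log2 fold change was -2.48 without labelled knockout replicate 3; the call of Serpinb6a ended with scaling by library totals (adjusted p = 0.0624). The inhibitor that rose was Serpina3g (8.76 ± 0.555 CPM in the labelled knockout libraries, 3.96 ± 0.615 CPM in the wild-type libraries; 1.13, adjusted p = 8.08e-05, edgeR). Cst7, the leukocyte cystatin, was at 126 ± 9.02 CPM in the labelled knockout libraries and 122 ± 5.57 CPM in the wild-type libraries and did not pass (0.04, interval -0.12 to 0.20, adjusted p = 0.673, edgeR).

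Of 11 tested genes that sort, tag or assist lysosomal enzymes, 5 fell and none rose, beside 22.9% and 21.3% of all tested genes. Their median on the log2 scale was -0.15, against 0.00. Of all tested genes, 44.2% passed in either direction, so the number that passed here in either direction was near the background. The mannose 6-phosphate receptors M6pr (183 ± 14.4 CPM in the labelled knockout libraries, 164 ± 4.92 CPM in the wild-type libraries) and Igf2r (119 ± 9.50 CPM in the labelled knockout libraries, 112 ± 4.45 CPM in the wild-type libraries) did not pass (adjusted p = 0.0926 and 0.383, edgeR), though M6pr passed as higher with scaling by library totals (0.26, adjusted p = 0.00932) and without labelled knockout replicate 2 (0.22, adjusted p = 0.0241). Gnptab, a subunit of the enzyme that starts the tag, fell by 0.37 on the log2 scale (adjusted p = 0.00148, edgeR), as did the adaptor Gga1 (-0.37, adjusted p = 0.000519) and the endocytic receptor Lrp1 (-0.67, adjusted p = 1.40e-05). The calls of Nagpa, which uncovers the tag (-0.25, adjusted p = 0.0338), and of Psap, the saposin precursor (-0.21, adjusted p = 0.0467), ended with library totals (adjusted p = 0.190 and 0.228, edgeR), with the length and GC offsets (-0.12 and -0.14, adjusted p = 0.229 and 0.114) and without any of wild-type replicates 1, 2 and 3 or labelled knockout replicates 2 and 3 (adjusted p up to 0.130 and 0.141).

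In the class II pathway, which Ctss, Ctsf, Ctsl and Lgmn serve, 3 of 4 tested partners fell and none rose, beside 22.9% and 21.3% of all tested genes. Cd74, the invariant chain, was at 575, 483 and 528 CPM in the labelled knockout libraries and at 659, 722 and 702 CPM in the wild-type libraries (-0.39, adjusted p = 0.00106, edgeR). Ifi30, a lysosomal thiol reductase, was at 224 ± 20.2 CPM in the labelled knockout libraries and 292 ± 18.0 CPM in the wild-type libraries (-0.38, adjusted p = 0.00113, edgeR). Under 17 alternative settings Cd74 ran from -0.46 to -0.22 and Ifi30 from -0.44 to -0.23, and both kept their calls. H2-DMb1, a peptide-loading chain with close relatives in the genome, fell by 0.38 (adjusted p = 0.0320, edgeR), a call that ended with library totals (adjusted p = 0.0931), with the length and GC offsets (adjusted p = 0.0752) and without wild-type replicate 2 or 3 or labelled knockout replicate 2 (adjusted p up to 0.157). Among the 4 factors of the MiT/TFE family, 1 passed, Mitf, beside 44.2% of all tested genes in either direction and 22.9% lower. Mitf fell to 41.5 ± 2.53 CPM in the labelled knockout libraries, against 62.3 ± 2.49 CPM in the wild-type libraries (-0.59, adjusted p = 2.79e-05, edgeR). The median of the 4 was -0.09, against 0.00 for all tested genes.

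**Figure D5:**
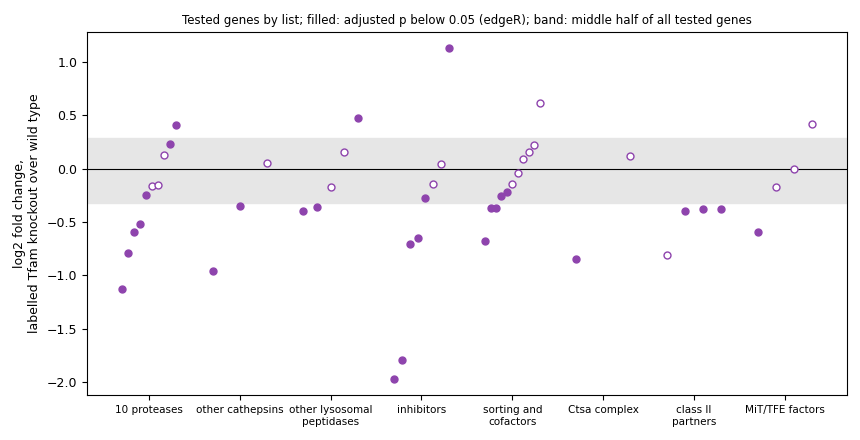
Log2 fold change, labelled Tfam knockout over wild type, of each tested gene of the 10 proteases and of 7 lists around them; filled points passed at an adjusted p below 0.05 (edgeR) and the band holds the middle 50% of all tested genes. The inhibitors reach from -1.97 (Serpinb1a) to 1.13 (Serpina3g), and no sorting gene that passed is above 0.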

How the data were processed

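RNA was sequenced from 6 BV2 samples, 3 per group, from libraries of poly(A) RNA made with a kit that does not mark strand. The submitters' processing notes name the build GRCm39 and, among tools, featureCounts 2.0.0, HISAT2 2.1.0, SAMtools 1.9 and bcl2fastq 2.17. Settings and annotation are not given in the sources used here. The deposited count table holds whole read counts per gene, and every gene has at least 6 summed over its 6 values. In the other deposited table the values are log2 of the count scaled to a common library total, plus 8, as the values themselves show.

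The test across genes was edgeR's quasi-likelihood test (edgeR 4.0.16, R 4.3.3; filterByExpr, TMM factors, no covariates, Benjamini-Hochberg adjustment over 13403 genes, threshold 0.05), and the step was tested on simulated counts. Each standard error was taken as the size of the log2 change divided by the root of its F statistic. Sums, shares and ratios were compared with exact two-sided permutation tests. Transcript lengths (for 99.5% of tested genes), exon overlaps and copies of transcripts (BLAST 2.17.0, 95% identity, at least 100 bases) came from GENCODE M21 and promoters from RefSeq, on GRCm38. Lengths used the principal transcript with the best support. Alternatives were DESeq2 1.42.0, limma-voom (limma 3.58.1), other scalings, filters, a replicate block, length and GC offsets, limma on the authors' log2 table with 1 in place of 8, and each library left out.

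Named genes were the 10 proteases, Tfam, and tested genes of the lists around them; Tmem119, a listed marker too low to test, and genes that overlap members were named in addition. The members and lists were chosen with earlier results of these data known, and the motifs and the genes overlapping members after values were seen.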

Additional observations from a re-analysis of the deposited data

How the results depend on the processing

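Of the 10 proteases, 5 (Ctsa, Ctsd, Ctsf, Ctsh and Lgmn) kept their direction and their call under all 17 alternatives, and no protease changed sign. Ctsf ran from -1.16 to -0.99, Ctsa from -0.85 to -0.68, Ctsh from -0.63 to -0.49, Lgmn from -0.57 to -0.42 and Ctsd from 0.34 to 0.53. The count of proteases that rose was 1 to 2, and of those that fell 4 to 5, when each library was left out in turn; over all genes these counts were 2353 to 2843 and 2488 to 2978. With library totals the median over all tested genes was 0.10 (log2) in place of 0.00, and 3834 genes rose and 2372 fell, against 2859 and 3067 with TMM factors; 3 proteases then rose and 4 fell. With the length and GC offsets 3 proteases rose and 7 fell, beside 3377 and 2983 of 13337 genes. The authors' log2 table gave 3 proteases that rose and 4 that fell, beside 3826 and 2381 of 13403 genes. There Ctsz passed as higher (0.23, adjusted p = 0.0272, limma) and Ctss did not pass (-0.14, adjusted p = 0.133, limma). Tfam passed as higher with library totals (0.24) and with the authors' log2 table (0.25), and was 0.13 to 0.17 with a library left out.

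The family sum was -0.061 with library totals and -0.21 to -0.10 with a library left out; it was -0.18 with Ctsk added or without Ctsd, both chosen after the data were seen. The ratio of Ctsd to cysteine proteases was 0.73 with these weighed equally and 0.40 to 0.57 with a library left out. That of Ctsa was -0.48 weighed equally, -0.81 without Lgmn and -0.79 to -0.68 with a library left out. That of Ctsd to Ctsa was 1.08 to 1.37 with a library left out. Shares did not overlap for 7 to 8 genes, a count with no background over all genes. The cause of these shifts was not tested. Cst7, which did not pass, was at -0.0050 without labelled knockout replicate 1.

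The labels do not say that replicate numbers pair samples, and deviations of same-numbered libraries correlated at -0.10, -0.11 and 0.04. With the replicate block 1 protease rose (Ctsd) and 4 fell, beside 2501 and 2754 of 13403 genes. Ctsb (adjusted p = 0.124), Ctss (0.0775), Nagpa (0.0587), Psap (0.116) and H2-DMb1 (0.0617, edgeR) did not pass with it, and Psap (0.0535) did not pass without mitochondrial genes. The smallest count of any protease was 261, for Ctsf in labelled knockout replicate 3, where counting error weighs most.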
